A study of Mus musculus with 14 samples.

Results

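The 9 genes described here act as feedback brakes on the ERK branch of MAP kinase signalling, and were followed in the cerebral cortex of control mice and of mice lacking Fmr1. They are Dusp1, Dusp4, Dusp5, Dusp6, Dusp14, Spry2, Spry4, Spred1 and Spred2. They were chosen by gene symbol, with earlier results of these data known, and all 9 were among the 23412 genes of the deposited count table. Control mice were Rpl22flox/flox;CamKCre+. Knock-out (KO) mice carried the same homozygous floxed Rpl22 and the same Cre, with the added genotype Fmr1X-Y. The source name calls the line CAMKIIa-Ribotag, after the promoter that drives Cre in excitatory forebrain neurons. The libraries were made from lysates of cortex, without isolating the tagged ribosomes as far as the labels say, and ages are not given in the sources used here. RNA libraries came from control mice 1, 3, 6 and 8 (4 mice) and from KO mice 2, 4, 5 and 7 (4 mice). Ribosome footprints, the mRNA pieces that ribosomes shield from nuclease, were sequenced in 3 control mice (1, 3 and 9) and 3 KO mice (2, 4 and 10). Nothing in the labels says how the mice were related or housed, so p-values measure the spread between these samples only.

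Growth factor and glutamate receptors activate Ras, which starts a kinase relay through Raf and MEK to ERK. Active ERK enters the nucleus and switches on early genes, and among these are genes whose products shut the pathway down again. The dual-specificity phosphatases (Dusp genes) remove phosphate from MAP kinases, while Sprouty (Spry) and Spred proteins act further up, between receptor and Raf. In cortical neurons the inducible members follow synaptic activity, and their transcripts are short-lived.

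The regions upstream of the members that rose in both assays are shown first, because the results turn on these members. Each sequence holds the 250 bases before the RefSeq transcription start, read 5′ to 3′ in the direction of the gene (GRCm38.p6). Capitals mark the cAMP response element TGACGTCA, its core TGACG and the CArG box, on either strand.
Dusp1, chr17:26508473-26508722, minus strand: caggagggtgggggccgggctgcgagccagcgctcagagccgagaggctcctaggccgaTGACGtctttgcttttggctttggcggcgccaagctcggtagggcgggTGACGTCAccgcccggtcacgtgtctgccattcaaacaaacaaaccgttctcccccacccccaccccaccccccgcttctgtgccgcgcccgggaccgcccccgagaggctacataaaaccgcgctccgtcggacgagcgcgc
Dusp5, chr19:53528895-53529144, plus strand: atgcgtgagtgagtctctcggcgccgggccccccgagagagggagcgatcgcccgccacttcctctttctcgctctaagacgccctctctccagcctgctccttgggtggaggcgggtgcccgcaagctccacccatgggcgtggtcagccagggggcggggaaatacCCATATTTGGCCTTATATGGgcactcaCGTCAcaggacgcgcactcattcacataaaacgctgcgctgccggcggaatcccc
Dusp6, chr10:99262981-99263230, plus strand: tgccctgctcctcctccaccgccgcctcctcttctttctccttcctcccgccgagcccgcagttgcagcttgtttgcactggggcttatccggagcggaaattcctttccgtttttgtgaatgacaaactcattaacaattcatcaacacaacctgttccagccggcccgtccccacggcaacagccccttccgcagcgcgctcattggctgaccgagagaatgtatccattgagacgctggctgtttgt
RefSeq promoter windows were found for 7 of the 9 members, not for Dusp4 or Spry4. Dusp1 held 1 full TGACGTCA, 143 to 136 bases before the start, and a separate core 191 to 187 bases before it. The full element also contains the core once on each strand, which gives 3 core matches in Dusp1. Dusp5 held 2 adjoining CArG boxes, 82 to 73 and 72 to 63 bases before the start, and 1 core on the opposite strand at 55 to 51. Dusp6 held neither element. Spred2 held 1 core, and Dusp14, Spry2 and Spred1 held none of the 3. Of 32851 upstream windows of the same length in the table, 1.55% held TGACGTCA, 17.8% the core TGACG and 1.47% a CArG box. The other motifs searched, on both strands, were TATAAA (12.4% of windows), TGANTCA (6.75%), CCGGAA (12%) and GGGCGG (32.7%). None of the 7 member windows held TATAAA or TGANTCA. For ETS factors only the string CCGGAA was searched, and it was found in Dusp14 only. Shorter strings such as GGAA, which the Dusp6 window above contains, were not counted, so ETS sites are not excluded. GGGCGG was in Dusp1, Dusp5, Dusp14, Spred1 and Spred2. These matches describe letters, not binding.

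Total counts per library were 8847547 to 11371851 for RNA and 4124065 to 6033030 for footprints. Fmr1, the deleted gene, was at 82.9 ± 8.36 CPM (SD, n = 4; CPM are counts scaled to library size) in the RNA of controls, and KO mice had 21.7 ± 2.40 CPM (SD, n = 4). Some RNA libraries stood apart. KO mice 2, 4 and 7 differed from each other by little more than counting noise (chi-square per degree of freedom 1.18 to 1.32), and control mice 1 and 3 were also close (1.99), whereas KO mouse 5 differed from the other KO mice by 5.64 to 6.02 and control mouse 8 from the other controls by 4.03 to 11.8. Control mouse 6 differed from control mice 1 and 3 by 4.12 and 4.56. Summed markers of the choroid plexus (4 genes) were at 276 CPM in control mouse 8 and 115 CPM in KO mouse 5, against 4.35 to 16.5 CPM in the other RNA libraries. Summed excitatory neuron markers (7 genes) were at 2103 to 2382 CPM in control RNA and 2684 to 2976 CPM in KO RNA, so the tissue held the cells its label names. No marker gene in the 10 lists was at 0 in all libraries of either assay. In bulk tissue, fewer cells of a type and less RNA per cell cannot be told apart.

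The first comparison asked whether the mRNA of these genes differed with genotype. All 9 members had a higher mean in KO mice, and 3 of them, Dusp1, Dusp5 and Dusp6, rose (edgeR, adjusted p under 0.05). None fell. Over all genes tested 7.51% were called, 3.58% higher and 3.94% lower. The median log2 fold change of the 9 members was 0.31, against -0.0010 over all 13507 genes. Because the members were chosen with earlier results known, this contrast is a description and no test.

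Dusp1, which encodes a nuclear phosphatase of ERK, JNK and p38 and is itself an early gene, moved most. Its RNA was at 19.6, 19.1, 20.6 and 35.8 CPM in control mice 1, 3, 6 and 8. In KO mice 2, 4, 5 and 7 it was at 71.7, 70.5, 30.2 and 75.5 CPM. KO mice 2, 4 and 7 were far above every control, while KO mouse 5 lay below control mouse 8, so the groups overlapped. The log2 fold change was 1.39 ± 0.25 (SE, adjusted p = 0.00478, edgeR). Dusp1 RNA was called in 16 of 18 alternative fits. It was not called in mice 5 to 8 alone (0.91, adjusted p = 0.139, edgeR). Nor was it called with near-identical libraries summed (1.11, adjusted p = 0.180, edgeR).

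Dusp5 encodes a nuclear phosphatase that acts on ERK alone among the MAP kinases. Control mice 1, 3, 6 and 8 had 5.34, 4.25, 5.97 and 8.77 CPM of its RNA, from 41 to 90 counts. KO mice 2, 4, 5 and 7 had 13.7, 11.6, 9.30 and 11.9 CPM. This was the only member whose RNA groups did not overlap, where 7.10% of all tested genes had every KO library above every control and 7.97% had every KO library below. Its log2 fold change was 0.93 ± 0.18 (SE, adjusted p = 0.00878, edgeR). Dusp5 RNA was also called in 16 of 18 alternative fits. The call was lost in mice 5 to 8 alone (0.52, adjusted p = 0.333, edgeR) and with near-identical libraries summed (0.85, adjusted p = 0.170, edgeR).

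Dusp6, the cytoplasmic counterpart of Dusp5, was at 52.1, 51.5, 51.1 and 80.4 CPM in control mice 1, 3, 6 and 8. In KO mice 2, 4, 5 and 7 it was at 106, 97.7, 60.9 and 92.9 CPM. Control mice 1, 3 and 6 were nearly identical, and control mouse 8 was above KO mouse 5. The log2 fold change was 0.60 ± 0.16 (SE, adjusted p = 0.0352, edgeR). Dusp6 was no longer called when any of 6 mice was left out: control mouse 1 (adjusted p = 0.0946, edgeR), KO mouse 2 (0.120), control mouse 3 (0.0861), KO mouse 4 (0.109), control mouse 6 (0.115) or KO mouse 7 (0.0947). It was not called with DESeq2 either (0.0864). In these fits the log2 fold change was between 0.52 and 0.61.

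The Sprouty genes missed the threshold in RNA, Spry2 narrowly. Spry2, an inducible inhibitor of receptor tyrosine kinase signalling, was at 44.0, 42.9, 49.7 and 57 CPM in control mice 1, 3, 6 and 8 and at 64.5, 57.8, 53.7 and 64.4 CPM in KO mice 2, 4, 5 and 7. Its log2 fold change was 0.31 ± 0.092 (SE, adjusted p = 0.0525, edgeR). Spry4 was at 3.42, 3.11, 3.98 and 5.55 CPM in the same control mice and at 7.12, 6.53, 3.02 and 7.31 CPM in the KO mice, from 26 to 75 counts. KO mouse 5 had the lowest Spry4 level of all 8 mice. The log2 fold change of Spry4 was 0.60 ± 0.24 (SE, adjusted p = 0.153, edgeR). Both passed the threshold without KO mouse 5 (adjusted p = 0.0274 for Spry2 and 0.0175 for Spry4, edgeR) and without control mouse 8 (0.00436 and 0.0432). In all 8 mice Spry2 was called by DESeq2 (adjusted p = 0.0300) and by edgeR with no filter on low counts (0.0492) or with the title prefix as a block (0.0499).

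The remaining members showed smaller RNA differences. Dusp4, a nuclear inducible phosphatase close to Dusp1, ranged from 3.93 to 6.43 CPM in controls and 5.46 to 6.97 CPM in KO mice (log2 fold change 0.29 ± 0.17 SE, adjusted p = 0.315, edgeR). Dusp14, a small atypical phosphatase without the kinase-binding domain of the larger ones, ranged from 25.8 to 42.9 CPM and from 31.4 to 39.0 CPM (0.13 ± 0.14 SE, adjusted p = 0.628, edgeR). Its highest library was control mouse 8. Spred1 and Spred2, which bring neurofibromin to the membrane to switch Ras off, were not called. Spred1 averaged 185 ± 5.79 CPM without the mutation and 190.4 ± 4.87 CPM with it (SD, n = 4 each), which differ by 0.040 ± 0.050 on the log2 scale (SE; edgeR adjusted p = 0.683). Spred2 was at 53.6 ± 0.851 CPM and 59.2 ± 4.19 CPM (SD, n = 4 each), with 0.14 ± 0.066 (SE, adjusted p = 0.209, edgeR).

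**Figure D1:**
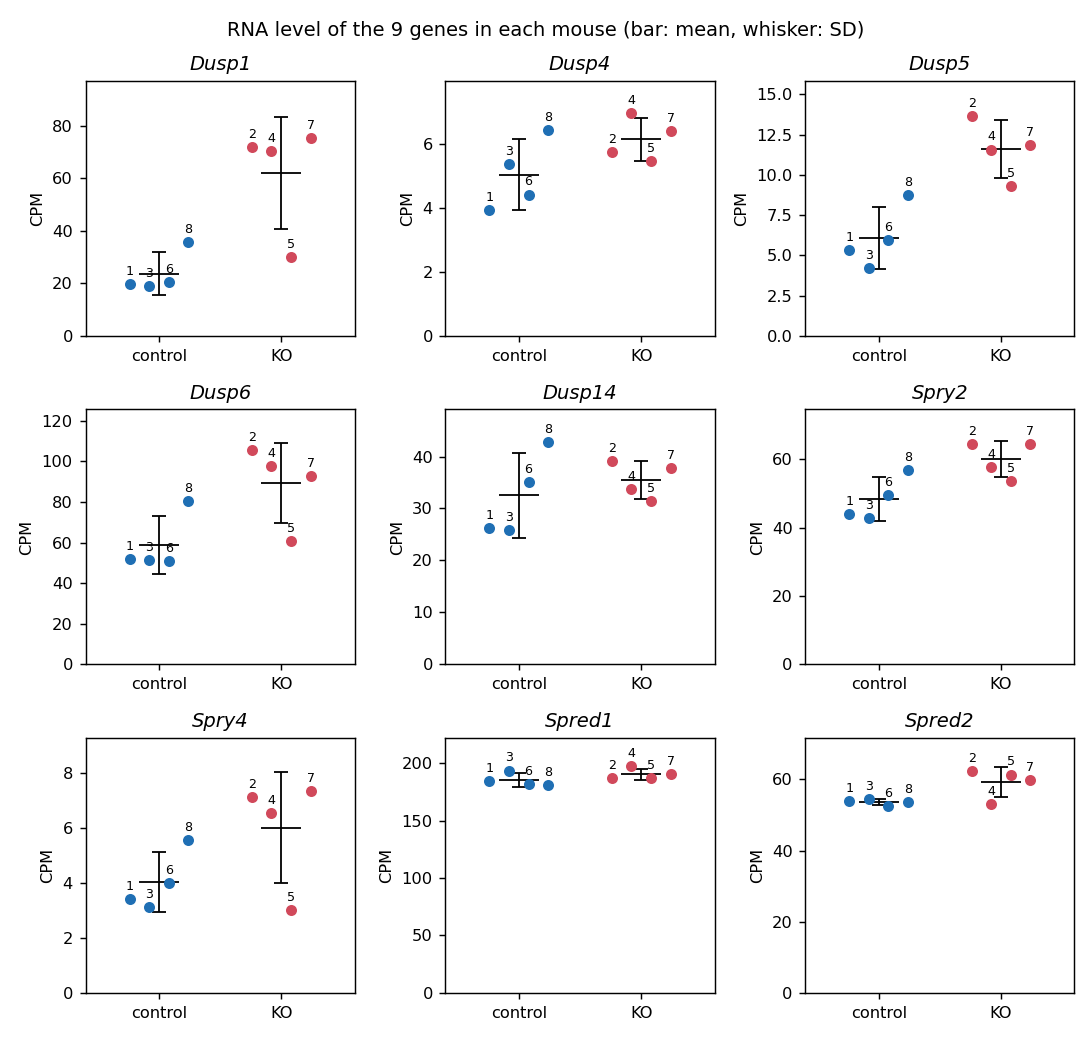
RNA level in CPM (vertical axis, from 0) of each of the 9 genes in control (blue) and KO (red) mice, with the mouse number above each point, the mean as a bar and the SD as whiskers (n = 4 each). For Dusp1 and Dusp6, KO mouse 5 (30.2 and 60.9 CPM) lies under control mouse 8 (35.8 and 80.4 CPM), while Spred1 is level across all mice.

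KO mouse 5 and control mouse 8 took the same places in most of the panel. KO mouse 5 was below control mouse 8 for 6 of the 9 members (Dusp1, Dusp4, Dusp6, Dusp14, Spry2 and Spry4). It was the lowest KO mouse for 8 members, and control mouse 8 was the highest control for 7. A fit without both mice was added after these values were seen, and leaving out the lowest KO mouse and the highest control had to widen the difference, so its values are a description and no test. It called 7 members, all but Spred1 and Spred2, and 22.6% of all genes. The log2 fold changes were 1.88 for Dusp1, 1.26 for Dusp5, 1.0 for Spry4, 0.94 for Dusp6, 0.49 for Dusp4, 0.46 for Spry2 and 0.35 for Dusp14.

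The RNA titles share a prefix within mice 1 and 2, within mice 3 and 4 and within mice 5 to 8, and what it stands for is not stated. Within the first prefix Dusp1 RNA was higher in the KO mouse by 1.87 on the log2 scale, within the next by 1.89 and within mice 5 to 8 by 0.91. For Dusp6 these values were 1.02, 0.92 and 0.23, and for Spry4 they were 1.06, 1.07 and 0.12. In mice 1 to 4 alone 6 members rose (24.2% of all genes were called), and in mice 5 to 8 alone none was called (0.423% of all genes). Mice 5 to 8 hold both libraries that stood farthest apart. The absence of a call does not show that the genotypes were alike. Treating the near-identical libraries as 1 sample each, by summing KO mice 2, 4 and 7 and likewise control mice 1 and 3, left no member called. The log2 fold changes were then 1.11 for Dusp1 (adjusted p = 0.180, edgeR), 0.85 for Dusp5 (0.170) and 0.42 for Dusp6 (0.452), from fewer samples.

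**Figure D2:**
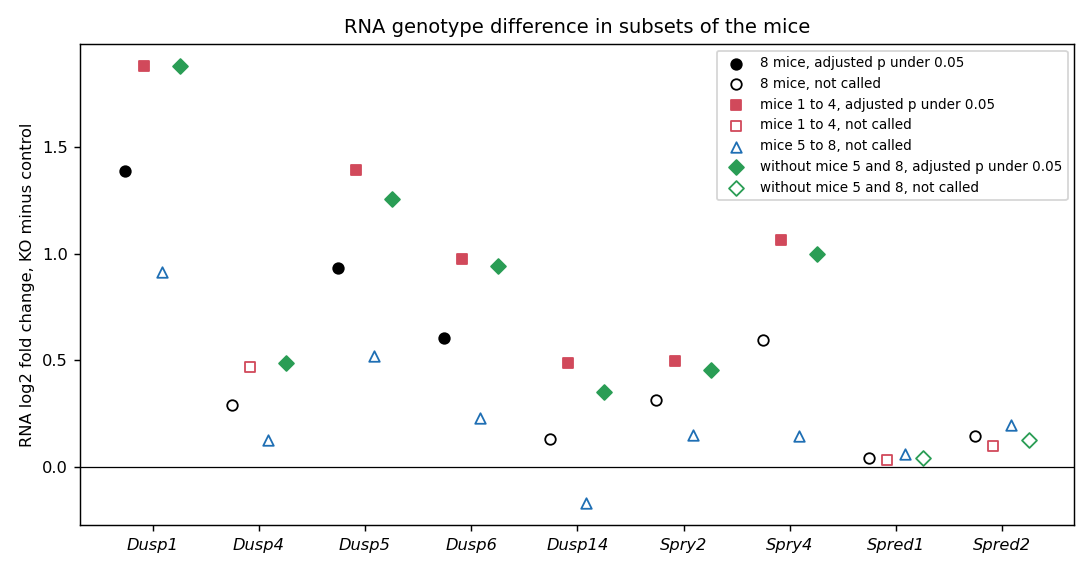
RNA log2 fold change (vertical axis, KO minus control) of each gene in all 8 mice, in mice 1 to 4, in mice 5 to 8 and without mice 5 and 8, with filled symbols for an adjusted p under 0.05 (edgeR). Dusp1 lies at 1.39, 1.88, 0.91 and 1.88 in this order, and Dusp14 is below 0 in mice 5 to 8 only.

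Endothelial markers (6 genes) were at 133 CPM in KO mouse 5 and 115 CPM in control mouse 8. In both mice Dusp1 and Dusp6 RNA lay between the levels of the other controls and those of the other KO mice. Control mouse 6 had the next lowest endothelial sum, 155 CPM, against 205 to 216 CPM in the remaining RNA libraries. Its Dusp1 and Dusp6 levels, 20.6 and 51.1 CPM, were nevertheless close to those of control mice 1 and 3. Between genotypes, hypothalamus markers (5 genes) were at 38.9 to 73.7 CPM in control RNA and 20.1 to 23.9 CPM in KO RNA, and oligodendrocyte markers (6 genes) at 4884 to 5326 CPM and 4267 to 4594 CPM. Oligodendrocyte precursor markers (3 genes) were at 192 to 207 CPM and 167 to 187 CPM. Summed astrocyte markers (6 genes) overlapped, at 2989 to 3190 CPM and 3069 to 3806 CPM. Of these 6 genes 2 fell and none rose, Gfap by 0.47 and Aqp4 by 0.46 on the log2 scale (adjusted p = 0.000317 and 0.00142, edgeR). The part of these cell types, of the excitatory neurons and of the choroid plexus in the RNA result was not tested.

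The second comparison asked whether ribosome occupancy of these genes differed. In footprints 6 of the 9 rose (Dusp1, Dusp5, Dusp6, Dusp14, Spry2 and Spry4), none fell, and Dusp4, Spred1 and Spred2 were not called. Over all genes tested 25.7% were called in footprints, 12% higher and 13.7% lower. The members' median log2 fold change was 0.47, against 0.0061 over all 12158 genes. As in RNA, the contrast between the chosen members and all genes is a description only. For 5 of the 9 every KO library lay above every control, which held for 18.1% of all tested genes, and 19.2% had every KO library below every control.

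Dusp1 footprints were at 35.9, 36.1 and 33.0 CPM in control mice 1, 3 and 9. In KO mice 2, 4 and 10 they were at 122, 134 and 137 CPM. All KO libraries lay far above all controls. This was a log2 fold change of 1.91 ± 0.072 (SE; edgeR adjusted p = 2.25e-42).

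Dusp5 footprints were at 4.01, 4.41 and 5.67 CPM in control mice 1, 3 and 9, from 17 to 32 counts. In KO mice 2, 4 and 10 they were at 14.5, 17.5 and 12.1 CPM, from 58 to 78 counts. The groups were well apart despite the low counts, with a log2 fold change of 1.62 ± 0.20 (SE; edgeR adjusted p = 1.31e-10).

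Dusp6 footprints were nearly equal in the KO mice. They were at 94.2, 94.3 and 83.5 CPM in control mice 1, 3 and 9 and at 197, 203 and 203 CPM in KO mice 2, 4 and 10. Dusp6 footprints thus rose by 1.15 ± 0.052 on the log2 scale (SE; edgeR adjusted p = 3.99e-36).

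Spry4 footprints were at 6.37, 6.28 and 9.92 CPM in control mice 1, 3 and 9 and at 14.9, 14.6 and 14.5 CPM in KO mice 2, 4 and 10. The KO libraries were nearly equal, and control mouse 9 was the highest control. On the log2 scale Spry4 rose by 0.94 ± 0.18 (SE, adjusted p = 1.51e-05, edgeR). Spry2 rose less, from 59.2, 54.4 and 52.1 CPM in the control mice to 78.3, 69.0 and 70.4 CPM in the KO mice (0.40 ± 0.075 SE, adjusted p = 1.07e-05, edgeR), again without overlap.

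Dusp14 footprints were at 62.1, 49.2 and 50.5 CPM in control mice 1, 3 and 9 and at 60.7, 60.0 and 65.6 CPM in KO mice 2, 4 and 10. Control mouse 1 lay within the KO range. The log2 fold change of 0.23 ± 0.080 (SE; edgeR adjusted p = 0.0262) was not called without control mouse 3 (adjusted p = 0.206, edgeR), control mouse 9 (0.116) or KO mouse 10 (0.157), nor with DESeq2 (0.186).

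Dusp4 footprints were at 5.66, 7.46 and 6.56 CPM in the control mice and at 9.73, 12.8 and 5.45 CPM in KO mice 2, 4 and 10. KO mouse 10, with 26 counts, had the lowest level of all, and the log2 fold change was 0.47 ± 0.22 (SE, adjusted p = 0.106, edgeR). Without KO mouse 10 it was 0.76 (adjusted p = 0.00792, edgeR), and without KO mouse 4 it was 0.16 (0.717). Spred1 footprints averaged 68.7 ± 4.41 CPM without the mutation and 67.0 ± 6.36 CPM with it (SD, n = 3 each), which differ by -0.041 ± 0.074 on the log2 scale (SE; edgeR adjusted p = 0.737). For Spred2 the levels were 18.5 ± 0.961 CPM and 19.5 ± 5.28 CPM (SD, n = 3 each), with 0.063 ± 0.14 (SE, adjusted p = 0.790, edgeR).

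**Figure D3:**
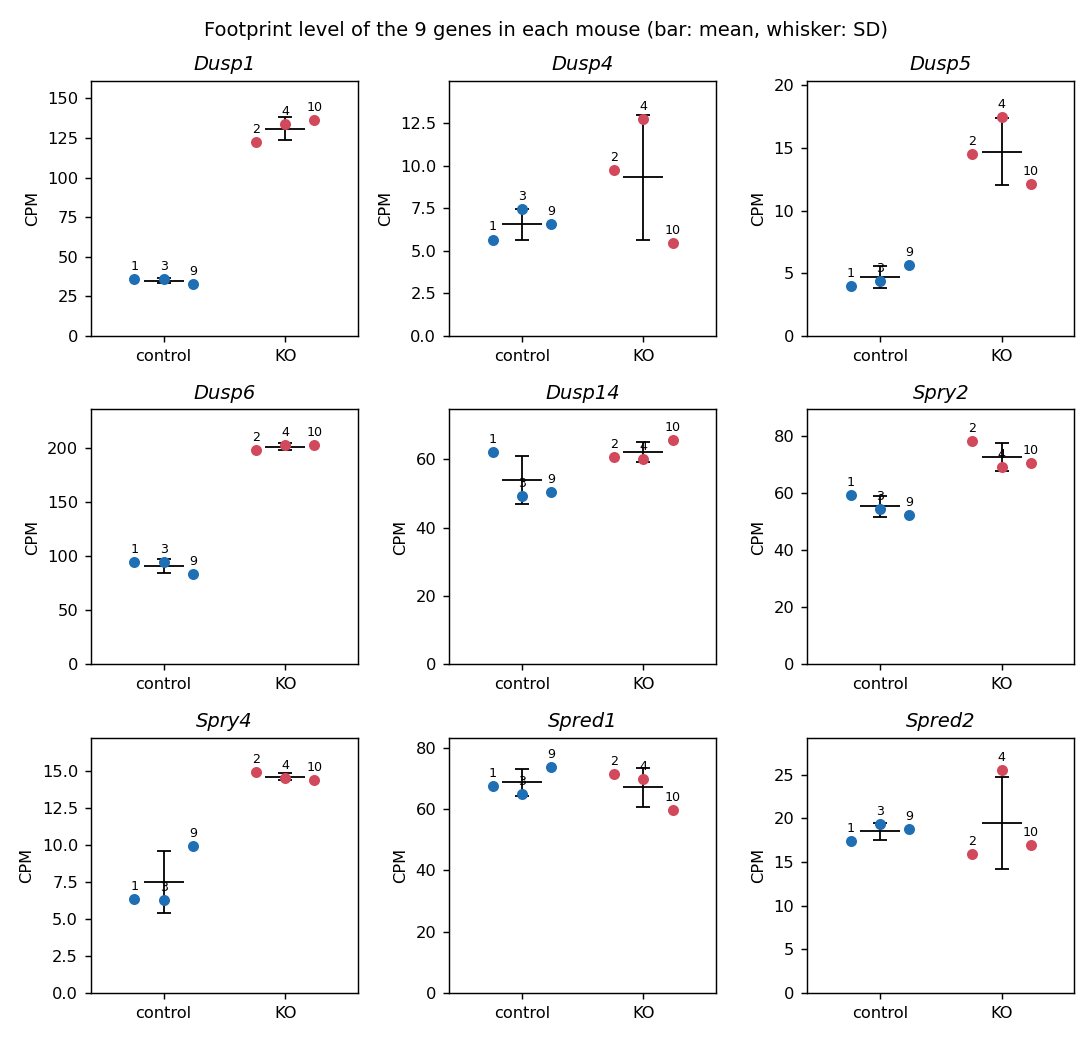
Footprint level in CPM (vertical axis, from 0) of each of the 9 genes in control (blue) and KO (red) mice, with the mouse number above each point, the mean as a bar and the SD as whiskers (n = 3 each). Dusp1, Dusp5, Dusp6, Spry2 and Spry4 separate completely, while Dusp4, Dusp14, Spred1 and Spred2 overlap.

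Each footprint prefix holds 1 mouse of each genotype. Dusp1 was higher in the KO mouse by 1.77 on the log2 scale in mice 1 and 2, by 1.89 in mice 3 and 4 and by 2.05 in mice 9 and 10. For Dusp6 the differences were 1.07, 1.10 and 1.28, and for Dusp5 they were 1.85, 1.99 and 1.10. Dusp4 was at -0.27 in mice 9 and 10, against 0.78 and 0.77 in the other pairs. Dusp14 was at -0.032 in mice 1 and 2, 0.29 in mice 3 and 4 and 0.38 in mice 9 and 10. Summed hypothalamus markers (5 genes) were at 110 to 118 CPM in control footprints and 41.5 to 48.0 CPM in KO footprints, and oligodendrocyte precursor markers (3 genes) at 373 to 379 CPM and 291 to 311 CPM. Excitatory neuron markers were at 4438 to 4542 CPM in control footprints and 4192 to 4321 CPM in KO footprints. This order is that of Camk2a, the most abundant of the 7 in footprints, which fell by 0.14 there and rose by 0.75 in RNA on the log2 scale, while Slc17a7 and Neurod6 rose in footprints by 0.078 and 0.26 (adjusted p under 0.05, edgeR). Inhibitory neuron markers (7 genes) were at 1800.5 to 1858 CPM in control and 1947 to 1981 CPM in KO footprints, and striatum markers (5 genes) at 1032 to 1077 CPM and 1154 to 1196 CPM. Oligodendrocyte markers were at 8194 to 8353 CPM and 8007 to 8049 CPM. Choroid plexus markers were at 5.90 to 8.99 CPM in control and 3.08 to 5.15 CPM in KO footprints, and endothelial markers were at 219 to 238 CPM in all 6 libraries. Sums can hide genes that moved both ways. Among endothelial markers Cldn5 fell by 0.40 and Slco1a4 rose by 0.35 (adjusted p = 3.97e-05 and 0.000761, edgeR). Striatum markers gave 2 rises and 1 fall, oligodendrocyte markers 1 rise and 3 falls, and inhibitory neuron markers 4 rises and 1 fall. The part of these cell types in the footprint result was not tested.

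The third comparison asked whether footprints changed beyond the change in RNA, as translational efficiency (TE), the interaction of genotype and assay. No member was called (edgeR), where 7.44% of 12145 genes were, 3.22% higher and 4.22% lower. Unadjusted p-values were under 0.05 for Dusp5 (0.0468) and Dusp6 (0.0185), and DESeq2 called none of the 6 members to which it gave an adjusted p. For 7 of the 9 members the footprint log2 fold change was larger than that of RNA in all mice, whereas the TE difference was above 0 for 3 of 9 with RNA of mice 1 to 4 only and for 3 of 9 without mice 5 and 8. TE differences were 0.68 ± 0.32 for Dusp5 (SE, adjusted p = 0.216, edgeR), 0.54 ± 0.21 for Dusp6 (0.127), 0.51 ± 0.33 for Dusp1 (0.390) and 0.34 ± 0.34 for Spry4 (0.610). The other members lay between -0.087 for Spred1 and 0.17 for Dusp4.

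The RNA set includes mice that gave no footprints, and the TE values moved with them. With RNA of mice 1 to 4 only, the TE difference of Dusp1 was 0.012 (adjusted p = 0.963, edgeR), that of Dusp6 0.16 (0.192), that of Dusp5 0.21 (0.674) and that of Spry4 -0.13 (0.811). With each mouse as a block, so that RNA and footprints were compared within mice 1 to 4, Dusp1 was at -0.057 (adjusted p = 0.839, edgeR), Dusp6 at 0.10 (0.529) and Dusp5 at 0.50 (0.332). Dusp14 was then called lower, at -0.36 (adjusted p = 0.0479, edgeR), in a fit that called 15.1% of all genes. Footprint CPM divided by RNA CPM, which can be read within 1 gene only, was 1.83 and 1.89 for Dusp1 in control mice 1 and 3 and 1.71 and 1.90 in KO mice 2 and 4. For Dusp6 the ratios were 1.81 and 1.83 in control mice 1 and 3 and 1.87 and 2.07 in KO mice 2 and 4. For Dusp14 they were 2.37 and 1.91 in the controls and 1.56 and 1.78 in the KO mice. Spry2 had 1.35 and 1.27 in the controls and 1.21 and 1.19 in the KO mice. Dusp4 had 1.44 and 1.38 in the controls and 1.69 and 1.83 in the KO mice. Dusp5 went from 0.752 and 1.04 to 1.06 and 1.51, and Spry4 from 1.86 and 2.02 to 2.10 and 2.23. Within these 4 mice the ratios of Dusp4, Dusp5, Dusp6 and Spry4 were higher in both KO mice, those of Dusp14 and Spry2 were lower in both, and those of Dusp1, Spred1 and Spred2 overlapped between genotypes. Of all 12145 genes 26.2% were higher in both KO mice and 27.4% lower in both, so that separation in 4 mice is common, and for Dusp5 it was as narrow as 1.06 against 1.04.

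**Figure D4:**
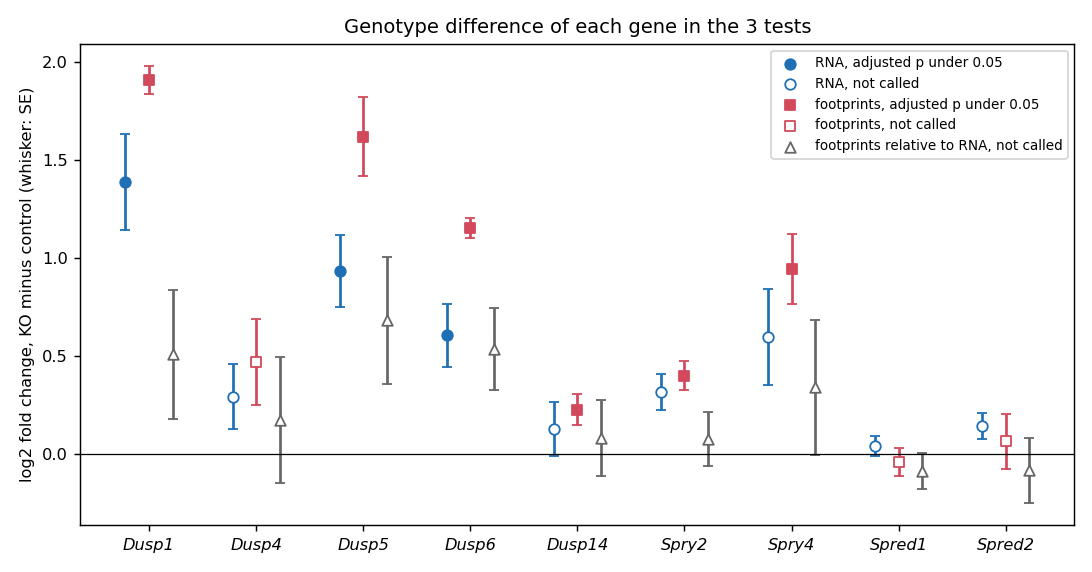
Log2 fold change (vertical axis, KO minus control) of each gene in RNA (circles), footprints (squares) and footprints relative to RNA (triangles), with SE as whiskers and filled symbols for an adjusted p under 0.05 (edgeR). With all mice, footprint values exceed RNA values for all members except Spred1 and Spred2, and no triangle is filled.

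Each RNA library also had a column counted over exons, whose region is not stated further. In these columns Dusp1, Dusp5, Dusp6, Spry2 and Spred2 rose, where 8.64% of all genes were called. Spry2 was at 0.30 (adjusted p = 0.0180, edgeR) and Spred2 at 0.23 (0.0176). Dusp5 had the same count in both kinds of column in all 8 libraries. For Spry4 the column without a suffix held 12.6% to 19.4% of the exon count, the lowest share among the members, and its exon log2 fold change was 0.39 (adjusted p = 0.125, edgeR).

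Close relatives of the members are set beside the shares called over all genes, 7.51% in RNA and 25.7% in footprints. Of the 6 other phosphatases with the kinase-binding domain (Dusp2, Dusp7, Dusp8, Dusp9, Dusp10 and Dusp16), none of 6 tested was called in RNA and none of 4 in footprints. Among 10 tested atypical phosphatases, Dusp11 rose in RNA (0.37 ± 0.098 SE, adjusted p = 0.0352, edgeR) and Dusp3, which acts on ERK and JNK, rose in footprints (0.43 ± 0.062 SE, adjusted p = 1.38e-08, edgeR). Spry1 was not called in RNA, but its footprints rose from 2.74 ± 0.167 CPM to 5.53 ± 0.995 CPM (SD, n = 3 each; log2 fold change 1.03 ± 0.29 SE, adjusted p = 0.00415, edgeR). Spred3 footprints fell by 0.42 ± 0.14 (SE, adjusted p = 0.0142, edgeR). The tyrosine phosphatases of MAP kinases had 2 tested genes and no call in either assay.

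The pathway that these genes restrain was read from lists of genes. Their counts stand against 3.58% higher and 3.94% lower calls over all genes in RNA and 12% higher and 13.7% lower calls in footprints, and nothing is called particular to a list from them. Of 12 kinases and scaffolds of the Raf, MEK and ERK relay, 1 fell and none rose in RNA. Lamtor3, a scaffold for MEK, fell by 0.41 ± 0.081 in RNA (SE, adjusted p = 0.00884, edgeR). Its footprints were at 0.61 ± 0.25 (SE, adjusted p = 0.0618, edgeR), and its TE rose by 1.01 ± 0.27 (SE, adjusted p = 0.0248, edgeR). Araf footprints rose by 0.21 ± 0.058 (SE, adjusted p = 0.00367, edgeR) and those of Ksr2, a Raf scaffold, fell by 0.34 ± 0.086 (SE, adjusted p = 0.00111, edgeR).

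Among 17 Ras GTPase-activating proteins and other negative regulators (a list that also holds Spint1, a protease inhibitor), 8 fell and none rose in footprints, and 1 fell in RNA. The median footprint log2 fold change was -0.14. Rasa3, a Ras GTPase-activating protein, fell by 0.22 ± 0.060 in RNA (SE, adjusted p = 0.0362, edgeR) and by 0.25 ± 0.068 in footprints (SE, adjusted p = 0.00281, edgeR). Cbl, a ubiquitin ligase of activated receptors, fell in footprints by 0.34 ± 0.082 (SE, adjusted p = 0.000666, edgeR) and in TE by 0.48 ± 0.12 (SE, adjusted p = 0.0148, edgeR).

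Receptors and ligands gave 1 rise and 2 falls among 23 in RNA, and 2 rises and 5 falls among 21 in footprints. Bdnf, a ligand of the TrkB receptor, rose in footprints by 0.34 ± 0.11 (SE, adjusted p = 0.0131, edgeR), and Ntf3 fell in RNA by 1.16 ± 0.27 (SE, adjusted p = 0.0181, edgeR). Of 19 Ras adaptors, exchange factors and small GTPases, none was called in RNA, and 2 rose and 3 fell in footprints. Rap1b footprints rose by 0.58 ± 0.068 (SE, adjusted p = 1.43e-11, edgeR). JNK and p38 kinases, which Dusp1 also acts on, gave 1 rise among 10 in RNA and 4 rises among 9 in footprints, with Mapk10 called in both (0.31 ± 0.063 and 0.13 ± 0.038 SE, adjusted p = 0.0107 and 0.00572, edgeR). ERK substrates and effectors gave no call among 13 in RNA, and 2 rises and 1 fall in footprints, where Rps6ka2 (the kinase RSK3) fell by 0.45 ± 0.091 (SE, adjusted p = 4.27e-05, edgeR).

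ERK-inducible transcripts rose in 14 of 23 tested genes in RNA and 15 of 22 in footprints, with medians of 1.13 and 1.04, and none fell. This list holds early genes that were already known to be high in these libraries, so its direction is not independent evidence. Etv1, Etv4, Etv5, Myc, Phlda1 and Ier3 were called in neither assay. Their log2 fold changes ran from -0.22 (Etv4) to 0.19 (Etv5) in RNA and from -0.22 (Etv4) to 0.34 (Etv1) in footprints. The list as a whole therefore did not move together. The largest RNA rise in the list was that of Cyr61, a matrix protein gene, at 2.30, followed by Egr2 at 2.19, both on the log2 scale (adjusted p = 0.000317 and 0.00536, edgeR). Fosb, a part of the AP-1 factor, went from 1.94 ± 0.323 CPM to 7.76 ± 2.29 CPM in RNA (SD, n = 4 each) and by 2.44 ± 0.18 on the log2 scale in footprints (SE, adjusted p = 4.82e-21, edgeR).

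The genes whose levels followed the members most closely were found by the root mean square difference of log2 deviations from the control mean over the 14 libraries, among 10573 genes with at least 5 CPM in both assays. Nearest to Dusp1 were Junb, an AP-1 subunit (0.17), and Trib1, a pseudokinase (0.18). Nearest to Dusp5 were Arl4d, a small GTPase (0.22), and Junb (0.27), and nearest to Dusp6 were Tiparp (0.12) and Arl4d (0.16). The match included the KO libraries, so the higher KO levels of these genes follow from how they were picked. As a description, the log2 fold change of Junb was 1.13 in RNA and 1.78 in footprints.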

How the data were processed

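RNA and ribosome footprints of mouse cortex were compared between control and Fmr1 KO mice. The authors deposited 1 table of raw counts per gene, with no normalization. Per the submitters' processing notes the tools were Bowtie2, STAR 2.5, featureCounts and Subread 1.4.6, and the builds mm9 and mm10; their roles are not given in the sources used here. RNA columns without a suffix were used, since 2849 of 23412 genes, none of them a member, have values in exon columns only. The table lists 27 genes under date-like names.

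RNA (13507 genes) and footprints (12158) were tested with edgeR 4.0.16 (R 4.3.3) by its quasi-likelihood F test, with TMM normalization and filterByExpr (minimum count 10). TE was the interaction of genotype and assay over all 14 libraries (12145 genes). All 9 members passed the filters. P-values are two-sided, adjusted by Benjamini and Hochberg's method over all genes tested, with calls at 0.05. CPM use TMM factors. SE come from the F statistic. The fits were tested on simulated data with a biological coefficient of variation of 0.04 (common value in the deposited counts: 0.0770 for RNA, 0.0211 for footprints). Of genes changed by 1 on the log2 scale, 98 of 100 were called in RNA (13498 genes), 93 of 99 in footprints (12133) and 164 of 182 in TE (12118). Of those changed by 0.5, 86 of 99 were called in RNA and 59 of 100 in footprints. The simulated spread was smaller than the common value for RNA and for TE (0.0656 in the deposited counts). The RNA and TE recovery is therefore likely higher than the deposited counts allow. Alternatives included DESeq2 1.42.0. Mice 1 to 4 are in both assays per the labels, which pairs their libraries. Deviations of RNA and footprints from group means correlated by -0.017 to 0.0604 across 6696 genes in these mice.

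The 9 members and the gene lists were chosen with earlier results of these data known. Apart from ERK-inducible transcripts named as not called, the genes named from each list were called ones. They were at most the 3 with the largest change in each assay, and only some are given. Nearest genes were computed for all 9 members and are given for those called in both assays, with 0.5 CPM added before taking logs. Upstream sequences are from RefSeq.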

Additional observations from a re-analysis of the deposited data

Results flagged for a closer look

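Dixon's test, which divides the distance of the most extreme library from its neighbour by the range of its group, was applied to RNA levels of the 9 members, Fmr1, library totals and 10 marker lists in each group of 4 mice. The quotient passed Dixon's 95% critical value in 10 of 42 groups. Chance flags about 1 in 20 groups of independent values, which these are not. KO mice 2, 4 and 7 are so alike that a gap among KO mice tends to fall to KO mouse 5.

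Among the members, Dusp1 was at 35.8 CPM in control mouse 8 against 19.1 to 20.6 CPM in the other controls, and at 30.2 CPM in KO mouse 5 against 70.5 to 75.5 CPM in the other KO mice. Dusp6 was at 80.4 CPM in control mouse 8 against 51.1 to 52.1 CPM. Summed choroid plexus markers were at 276 CPM in control mouse 8 against 8.46 to 16.5 CPM, and at 115 CPM in KO mouse 5 against 4.35 to 7.51 CPM. In KO mouse 5 the summed markers were 3806 CPM for astrocytes against 3069 to 3102 CPM, 133 CPM for endothelium against 205 to 210.4 CPM, 2976 CPM for excitatory neurons against 2684 to 2703 CPM, 1025 CPM for inhibitory neurons against 890 to 911 CPM and 4267 CPM for oligodendrocytes against 4554 to 4594 CPM.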

How the results depend on the processing

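Calls over all genes numbered 1015 for RNA, 3123 for footprints and 904 for TE. RNA calls were 36 with KO mice 2, 4 and 7 and control mice 1 and 3 summed, 3284 in mice 1 to 4, 57 in mice 5 to 8 and 3065 without mice 5 and 8 (added after the data were seen). Leaving out 1 mouse gave 372 to 1791 RNA calls, 2546 to 2877 footprint calls and 376 to 1229 TE calls. Footprint calls were 1801 with DESeq2. TE calls were 1831 with mouse as the replicate block, 512 with the sums, 2004 without mice 5 and 8 and 2243 with RNA of mice 1 to 4 only (the last 2 added later). On plain library sizes 2280 of 3438 footprint calls were higher, against 1461 of 3123, and the median of all genes moved from 0.0061 to 0.065. TE calls higher were then 674 of 993, against 391 of 904.

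Dusp1, Dusp5, Dusp6, Spry2 and Spry4 kept their footprint call in all 11 alternatives. No called member reversed in any alternative. Members that were not called and changed sign follow, and the cause was not tested. Spred1 footprints were at 0.018 on plain library sizes. Dusp14 RNA was at -0.17 in mice 5 to 8. In TE with the replicate block Dusp1 was at -0.057, Dusp14 at -0.36, Spry2 at -0.13, Spred1 at 0.063 and Spred2 at 0.072. Without mice 5 and 8, TE was -0.028 for Dusp4, -0.14 for Dusp14, -0.068 for Spry2 and -0.064 for Spry4. With RNA of mice 1 to 4 only it was -0.0099 for Dusp4, -0.27 for Dusp14, -0.11 for Spry2 and -0.13 for Spry4. Leaving out 1 mouse, the ranges were -0.089 to 0.039 for Spred1 footprints and -0.18 to 0.18 for Spred2 footprints. In TE they were -0.38 to 0.065 for Spred2, -0.059 to 0.47 for Dusp4, -0.084 to 0.27 for Dusp14 and -0.016 to 0.16 for Spry2. With the title prefix as a block Spry2 passed the threshold in RNA (adjusted p = 0.0499, edgeR), and the replicate block changed no call of a member other than that of Dusp14 in TE. DESeq2 gave no adjusted p in TE for Dusp4, Dusp5 and Spry4. Dusp4, Dusp5 and Spry4 had as few as 17 to 27 footprint counts in a library, which limits their precision.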
